A study of Homo sapiens with 18 samples.

Results

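The nuclear genes of oxidative phosphorylation were followed through the first days of organoid formation in a human stem cell line with and without an intact pair of LIS1 alleles. Members were taken by symbol alone, although the choice was made with earlier results of these data known: NDUFA, NDUFB, NDUFC, NDUFS and NDUFV genes, UQCR genes, COX4 to COX8 genes, ATP5 genes, the succinate dehydrogenase genes SDHA, SDHB, SDHC and SDHD, and CYC1. Symbols with a hyphen and pseudogene symbols ending in P were left out. This gave 95 of 26485 gene rows: 37 complex I subunits, 7 complex I assembly factors, 4 complex II genes, 10 complex III genes, 19 complex IV genes and 18 complex V genes. NDUFA4 was counted with complex IV, where its protein is now placed. The complex V genes include ATP5S, ATP5SL and ATP5L2 by symbol. They are now named DMAC2L, DMAC2 and ATP5MGL and were classed as related genes, not as subunits. The filter on low counts left 83 members, and 12 were not tested.

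Oxidative phosphorylation takes electrons from NADH at complex I and from succinate at complex II, passes them through complex III to complex IV, and uses the proton gradient built on the way to make ATP at complex V. Most subunits are encoded in the nucleus and imported, while a small core is encoded by mitochondrial DNA. Pluripotent stem cells are known to rely heavily on glycolysis, and neurons on respiration. ETS-family factors, NRF1 and YY1 are known to bind promoters of many of these nuclear genes.

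RNA was sequenced in bulk with MARS-seq, a 3' tag method, from the human embryonic stem cell (hESC) line WIBR3 and cortical organoids grown from it. The 18 libraries formed 6 groups of 3: hESC LIS1+/-, hESC LIS1+/+, Day 5 LIS1+/-, Day 5 LIS1+/+, Day 12 LIS1+/- and Day 12 LIS1+/+. LIS1, with the gene symbol PAFAH1B1, encodes a regulator of the motor protein dynein. Neither the altered part of LIS1 nor the number of clones is stated, and an effect of genotype cannot be told apart from one of clone. A different pool number marks each stage in the file names, so stage and pool cannot be told apart either. Nothing in the labels says that the 3 libraries of a group were separate cultures. A p-value therefore sets a change against the variation among libraries, which may be technical. In bulk RNA, fewer cells of a type and less RNA per cell cannot be told apart.

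Gene counts per library lay between 1425098 and 4501489, and the members took 1.5% to 2.38% of them. Alignments set aside as not unique made up 34.9% to 52.5% in hESC LIS1+/-, 46.2% to 58.3% in hESC LIS1+/+ and 26.5% to 33.7% in the organoid libraries. Relative to the other libraries of their stage, replicate 3 of hESC LIS1+/+ and replicate 2 of both Day 5 LIS1+/- and Day 12 LIS1+/+ held fewer counts of GC-rich genes (slopes of -0.0346 to -0.0217 log2 per percent GC, against -0.00206 to 0.0166 in the other 15 libraries). Transcript ends of tested members had a median GC content of 47.5%, against 47.1% over all tested genes. Levels are given as CPM, the share of a library's gene counts after TMM scaling. PAFAH1B1 had 61.2, 51.4 and 55.9 CPM in hESC LIS1+/- and 84.8, 72.1 and 111 CPM in hESC LIS1+/+. At Day 5 it stood at 89.0, 105 and 84.3 CPM in LIS1+/-, against 130, 134 and 152 CPM in LIS1+/+, and at Day 12 at 104, 114 and 76.1 CPM in LIS1+/-, against 147, 218 and 140 CPM in LIS1+/+. The genotypes did not overlap at any stage, and the mean effect over the stages was -0.68 ± 0.11 (SE, adjusted p = 0.000812, edgeR). Stage labels were checked against markers. POU5F1, the defining factor of pluripotency, stood between 400 and 562 CPM in hESC, 5.85 and 37.4 CPM at Day 5 and 0.487 and 0.646 CPM at Day 12. EMX2, a homeobox gene of the dorsal forebrain, stood between 0 and 1.44 CPM in hESC, 103 and 173 CPM at Day 5 and 191 and 479 CPM at Day 12.

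A RefSeq promoter (GRCh38.p14, 250 bases before to 50 after the start site) was found for 76 of the 95 members, and 7 are shown for the genes on which the stage results turn. The upstream 250 bases are written 5' to 3' on the gene's strand. Capitals mark matches, on either strand, to an ETS motif (CCGGAAG), the NRF1 motif or the hypoxia response core ACGTG. The SDHB stretch lies at chr1:17054033-17054282 on the minus strand and that of SDHD at chr11:112086623-112086872 on the plus strand. NDUFA9 lies at chr12:4648864-4649113 and UQCRH at chr1:46303448-46303697, both on the plus strand. ATP5G1, now named ATP5MC1, lies at chr17:48892537-48892786 on the plus strand, ATP5G2 (ATP5MC2) at chr12:53676084-53676333 on the minus strand and NDUFAF3 at chr3:49020202-49020451 on the plus strand.
SDHB: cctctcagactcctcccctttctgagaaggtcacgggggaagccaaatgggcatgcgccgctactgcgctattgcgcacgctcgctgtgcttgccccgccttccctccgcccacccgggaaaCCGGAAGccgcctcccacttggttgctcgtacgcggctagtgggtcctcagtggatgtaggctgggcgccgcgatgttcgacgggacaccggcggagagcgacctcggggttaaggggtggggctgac
SDHD: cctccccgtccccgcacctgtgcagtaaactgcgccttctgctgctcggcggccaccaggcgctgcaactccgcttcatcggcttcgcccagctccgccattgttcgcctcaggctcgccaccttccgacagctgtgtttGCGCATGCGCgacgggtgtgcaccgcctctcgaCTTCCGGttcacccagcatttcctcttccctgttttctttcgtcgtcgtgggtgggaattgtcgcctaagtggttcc
NDUFA9: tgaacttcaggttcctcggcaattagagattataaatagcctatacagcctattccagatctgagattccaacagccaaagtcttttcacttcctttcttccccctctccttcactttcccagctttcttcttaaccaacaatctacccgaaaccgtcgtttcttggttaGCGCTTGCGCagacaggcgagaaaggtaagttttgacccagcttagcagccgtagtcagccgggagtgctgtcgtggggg
UQCRH: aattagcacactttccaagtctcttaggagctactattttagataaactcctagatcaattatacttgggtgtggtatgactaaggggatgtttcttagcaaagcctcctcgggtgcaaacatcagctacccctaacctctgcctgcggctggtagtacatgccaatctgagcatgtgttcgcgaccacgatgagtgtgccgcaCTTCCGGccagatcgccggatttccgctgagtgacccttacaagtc
ATP5G1: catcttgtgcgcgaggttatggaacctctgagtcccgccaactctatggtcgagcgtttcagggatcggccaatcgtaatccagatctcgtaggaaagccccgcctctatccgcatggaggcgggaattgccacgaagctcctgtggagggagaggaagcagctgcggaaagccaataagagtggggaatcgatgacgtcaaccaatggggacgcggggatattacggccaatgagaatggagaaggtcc
ATP5G2: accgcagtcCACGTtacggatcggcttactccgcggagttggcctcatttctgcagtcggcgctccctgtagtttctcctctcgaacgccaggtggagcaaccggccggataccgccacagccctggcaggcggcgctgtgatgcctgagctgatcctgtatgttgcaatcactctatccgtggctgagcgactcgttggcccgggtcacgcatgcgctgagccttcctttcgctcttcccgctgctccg
NDUFAF3: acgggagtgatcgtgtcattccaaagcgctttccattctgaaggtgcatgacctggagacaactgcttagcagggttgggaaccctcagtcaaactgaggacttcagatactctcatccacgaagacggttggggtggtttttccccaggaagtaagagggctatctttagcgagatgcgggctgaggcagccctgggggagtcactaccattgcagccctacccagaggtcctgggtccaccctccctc

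The ETS motif was in 20 of the 76 member promoters (26.3%), against 14.2% of 15843 promoters of protein-coding genes in the same table. The NRF1 motif was in 17 (22.4%, against 8.58%) and the YY1 motif in 4 (5.26%, against 1.37%). These counts used the whole 300-base window on both strands. By contrast ACGTG was in 18 (23.7%, against 23.7%), the CCAAT box in 27 (35.5%, against 36.4%) and TATAAA in 7 (9.21%, against 9.63%). The cyclic AMP response element TGACGTCA was in 5 (6.58%, against 2.59%), and ACGTG is not contained in any of the other motifs. SDHB, SDHD and UQCRH held the ETS motif, and SDHD and NDUFA9 the NRF1 motif. SDHB and NDUFA9 also held the YY1 motif, past the start site and so outside the bases shown. The promoter of NDUFAF3 held neither ETS, NRF1, YY1 nor ACGTG letters. Neither ATP5G1, which fell by Day 5 in both genotypes, nor ATP5G2 held an ETS, NRF1 or YY1 match. ATP5G1 held ACGTG past the start site, the cyclic AMP response element and CCAAT, and ATP5G2 held ACGTG. A relation between motifs and stage changes was not tested. A match is a run of letters, and binding was not measured here. Members without a promoter entry included ATP5B, ATP5D, ATP5G3, ATP5J2, ATP5L2, ATP5S, COX4I2, COX6C, COX7A1, CYC1, NDUFAF6, NDUFB5, NDUFB9, NDUFC2, NDUFS5, SDHC, UQCRB and UQCRHL.

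The first question was how the members changed between stages. In sum they were highest in stem cells, lower at Day 5 and lowest at Day 12, in both genotypes. The summed level of the 95 members was 24884, 20881 and 19576 CPM in the 3 hESC LIS1+/- libraries, 17348, 17971 and 17045 CPM at Day 5 LIS1+/- and 15212, 13837 and 14334 CPM at Day 12 LIS1+/-. In LIS1+/+ it was 26444, 23399 and 26048 CPM in hESC, 18179, 18356 and 16708 CPM at Day 5 and 15245, 14850 and 14564 CPM at Day 12. On this TMM-scaled level no library of 1 stage overlapped with a library of another. As an unscaled share of gene counts, the members' 1.73% to 1.90% at Day 5 LIS1+/- overlapped with 1.82% to 2.14% in hESC LIS1+/-, while 1.73% to 1.81% at Day 5 LIS1+/+ lay below 2.19% to 2.38% in hESC LIS1+/+. Day 12 lay lowest on both scales.

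At Day 12 against hESC in LIS1+/-, 42 of the 83 tested members were lower and 3 higher at an adjusted p under 0.05 (edgeR's quasi-likelihood test, adjusted over 12215 genes), where 25.4% of all genes tested were lower and 26.7% higher (52.1% in both directions). In LIS1+/+ 53 were lower and 1 was higher, where 25% of all genes were lower and 28.1% higher (53.1%). The members' median log2 fold change was -0.48 in LIS1+/- and -0.67 in LIS1+/+, beside 0.04 and 0.09 over all genes. Of the members lower at Day 12, 41 were shared, which is 97.6% of the LIS1+/- list and 77.4% of the LIS1+/+ list, and none passed in opposite directions. Sharing between the genotypes was not counted over all genes, so it cannot be called particular to the members.

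The steps were also taken one at a time. At Day 5 against hESC, 22 members fell and 7 rose in LIS1+/- (21.4% and 22.4% of all genes, 43.7% in both directions), and 39 fell and 2 rose in LIS1+/+ (21.7% and 22.9%, 44.6%). Medians were -0.18 in LIS1+/- and -0.49 in LIS1+/+, beside 0.06 over all genes in each. At Day 12 against Day 5, 17 fell and 2 rose in LIS1+/- (7.64% and 8.9%, 16.5% in both directions), and 18 fell and 1 rose in LIS1+/+ (11.7% and 12.7%, 24.5%). Medians were -0.24 in LIS1+/- and -0.29 in LIS1+/+, beside -0.01 and 0.02. Of the members that fell at this later step, 7 were shared by the genotypes (41.2% of the LIS1+/- list and 38.9% of the LIS1+/+ list), again without a count over all genes. Its count of 19 in LIS1+/- was 12 without Day 5 LIS1+/- replicate 1 and 12 without Day 12 LIS1+/- replicate 2, and its count of 19 in LIS1+/+ was 12 or 8 without Day 5 LIS1+/+ replicate 1 or 2 and 11 without Day 12 LIS1+/+ replicate 2.

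Over the 6 stage comparisons, 59 tested members were lower in at least 1 and higher in none, 4 were higher only (ATP5E, NDUFAF3, NDUFB1 and NDUFC2) and 6 passed in both directions (ATP5G2, ATP5H, ATP5J, COX6C, COX7B and UQCRHL). The complex I gene NDUFB9 and the complex III gene UQCRH were lower in all 6. A further 14 passed in none, among them the complex I genes NDUFA3, NDUFA7, NDUFA10, NDUFA11, NDUFA13, NDUFB8 and NDUFS7, the complex II genes SDHA and SDHC, and UQCRQ, NDUFA4, ATP5S and ATP5SL. No such tally was made over all genes, of which 16.5% to 53.1% passed in each of the 6 comparisons. Beside the stage changes, the share of alignments not unique also differed between hESC and organoids, as given above, and the summed level of 14 pluripotency markers ran between 4734 and 6390 CPM in hESC, 1117 and 1778 CPM at Day 5 and 587 and 807 CPM at Day 12. The part of either in the members' changes was not tested.

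**Figure D1:**
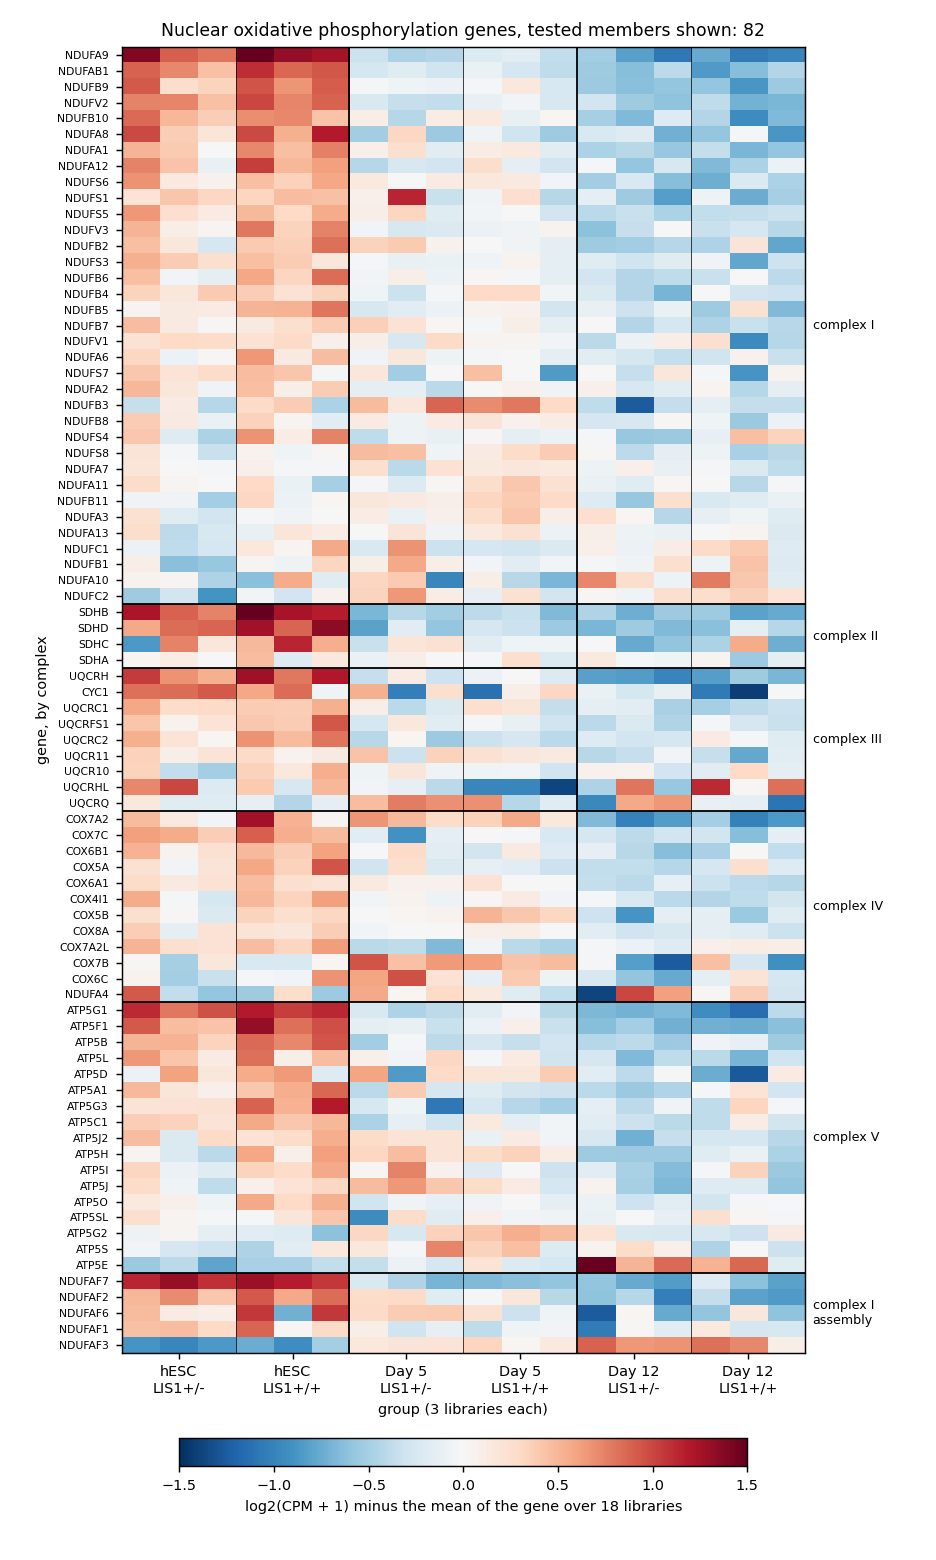
Levels of 82 of the 83 tested members (rows, by complex) in the 18 libraries (columns, 3 per group), as log2(CPM + 1) minus the gene's mean over all libraries on the colour scale. Most rows are red in hESC and blue at Day 12, and NDUFAF3 and ATP5E run the other way.

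**Figure D2:**
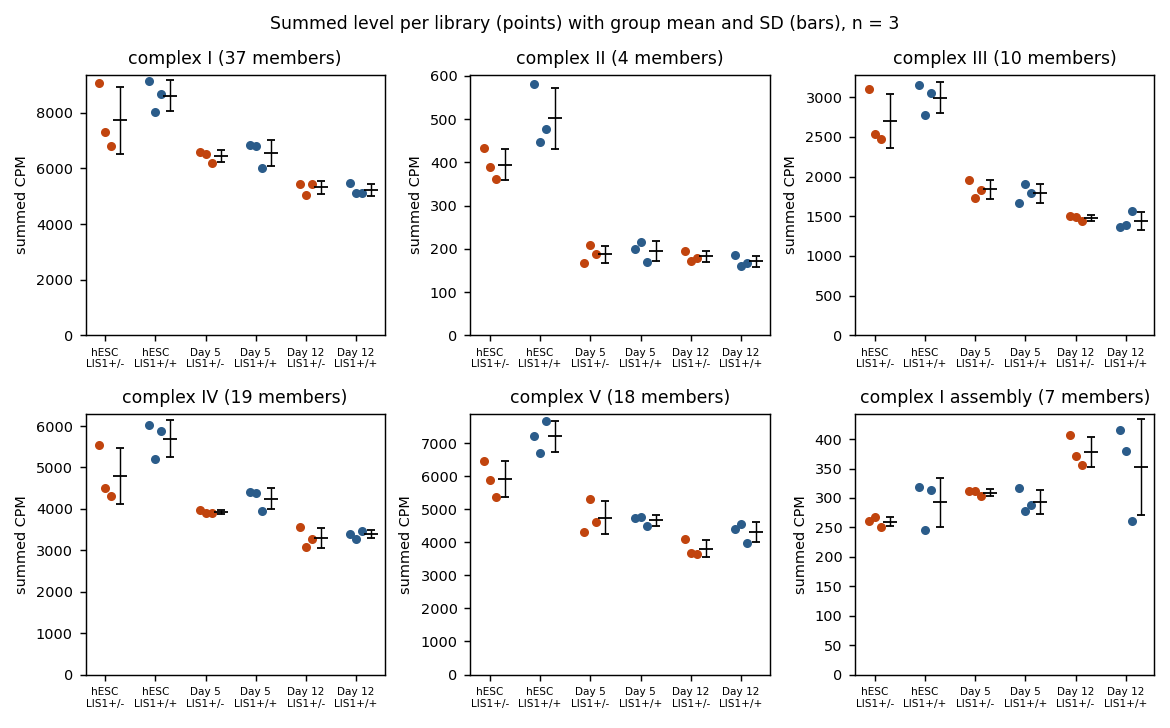
Summed CPM of each complex (vertical axis) in every library (points) by group, with the group mean and SD. By group mean complexes I, III, IV and V stand lower at each later stage, complex II drops once by Day 5, and the assembly factors, led by NDUFAF3, stand highest at Day 12 in 5 of 6 libraries.

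The largest complex, complex I, takes electrons from NADH. Of its 36 tested subunit genes, 17 were lower and 1 higher at Day 12 against hESC in LIS1+/- (median -0.41), and 21 were lower and none higher in LIS1+/+ (median -0.57). Of all genes tested, 25.4% were lower and 26.7% higher in LIS1+/-, and 25% lower and 28.1% higher in LIS1+/+. NDUFA9, an accessory subunit at the junction of the matrix and membrane arms, stood at 123, 87.5 and 81.9 CPM in hESC LIS1+/-, 37.0, 33.3 and 33.9 CPM at Day 5 and 32.2, 25.9 and 21.7 CPM at Day 12. In LIS1+/+ it stood at 134, 118 and 112 CPM in hESC, 40.0, 41.2 and 35.9 CPM at Day 5 and 27.1, 22.0 and 22.9 CPM at Day 12. The stages did not overlap in either genotype. Its log2 fold change at Day 12 against hESC was -1.89 ± 0.20 (SE, n = 3 against 3, adjusted p = 1.37e-08) in LIS1+/- and -2.34 ± 0.21 (adjusted p = 7.37e-10) in LIS1+/+, a 3.71-fold and a 5.05-fold lower level. The later step passed in LIS1+/+ alone (-0.70 ± 0.21, adjusted p = 0.0147, and -0.41 ± 0.20, adjusted p = 0.174, in LIS1+/-), and it no longer passed when replicate 2 of Day 5 LIS1+/+ or replicate 2 of Day 12 LIS1+/+ was left out (adjusted p up to 0.0531). The gene overlaps AC005833.1 on the same strand in GENCODE 29, so its counts are uncertain.

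Other complex I genes followed with smaller steps. NDUFAB1, the mitochondrial acyl carrier protein, had a log2 fold change of -1.21 ± 0.15 at Day 12 against hESC in LIS1+/- and -1.61 ± 0.16 in LIS1+/+. NDUFV2, an iron-sulfur core subunit of the NADH-oxidising module, had one of -1.12 ± 0.15 in LIS1+/- and -1.47 ± 0.16 in LIS1+/+. Their adjusted p-values in edgeR ran between 2.95e-09 and 7.82e-07. NDUFV2 overlaps AP005263.1 on the same strand, so its counts are uncertain.

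NDUFB9, a membrane arm subunit, stood at 506, 321 and 339 CPM in hESC LIS1+/-, 265, 257 and 251 CPM at Day 5 and 183, 173 and 180 CPM at Day 12. The LIS1+/+ values were 517, 423 and 505 CPM in hESC, 263, 299 and 226 CPM at Day 5 and 178, 146 and 183 CPM at Day 12. Each stage lay below the one before without overlap. The gene overlaps MTSS1 on the opposite strand, and whether counting used strand is not stated. In LIS1+/- its step to Day 5 (-0.59 ± 0.16) lost the call without hESC LIS1+/- replicate 1 (-0.36), and its step to Day 12 (-0.53 ± 0.17, adjusted p = 0.0274) lost it without Day 5 LIS1+/- replicate 1 or 3 and without each of the Day 12 LIS1+/- replicates (adjusted p up to 0.0944).

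NDUFB3, a small membrane arm subunit, moved at the later step, with 8.66, 4.27 and 8.83 CPM at Day 12 LIS1+/-, against 16.4, 13.2 and 21.9 CPM at Day 5 LIS1+/-. The fold change was -1.28 ± 0.33 (adjusted p = 0.00873) in LIS1+/-, where it was lost without Day 5 replicate 3 or Day 12 replicate 2, and -0.97 ± 0.34 (adjusted p = 0.0349) in LIS1+/+, where it was lost without Day 5 replicate 1 or 2, without each of the Day 12 replicates and without the 3 libraries with the GC slope. RefSeq lists 5 pseudogenes of NDUFB3, so its counts are uncertain. NDUFC2 rose in LIS1+/- at Day 5 (0.96 ± 0.22, adjusted p = 0.000776) and had a log2 fold change of 0.04 ± 0.21 (adjusted p = 0.898) in LIS1+/+. It overlaps the read-through gene NDUFC2-KCTD14, so its counts are uncertain.

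Complex II, succinate dehydrogenase, links the respiratory chain to the tricarboxylic acid cycle, and its 4 genes split. SDHB, the iron-sulfur subunit, stood at 302, 238 and 216 CPM in hESC LIS1+/-, 79.2, 96.1 and 89.2 CPM at Day 5 and 93.4, 76.8 and 87.5 CPM at Day 12. Its LIS1+/+ libraries had 386, 305 and 292 CPM in hESC, 97.9, 102 and 81.2 CPM at Day 5 and 88.5, 73.0 and 75.4 CPM at Day 12. Every organoid library lay far below every hESC library, and Day 5 and Day 12 overlapped. At Day 5 against hESC the log2 fold change was -1.51 ± 0.17 (adjusted p = 4.87e-08) in LIS1+/- and -1.81 ± 0.17 (adjusted p = 2.01e-09) in LIS1+/+, a 2.85-fold and a 3.5-fold lower level. The step after it was -0.04 ± 0.17 (adjusted p = 0.904) in LIS1+/- and -0.25 ± 0.17 (adjusted p = 0.306) in LIS1+/+.

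SDHD, a membrane anchor of the enzyme, showed the same order. It stood at 60.6, 73.0 and 75 CPM in hESC LIS1+/-, 22.8, 36.2 and 26.6 CPM at Day 5 and 24.7, 27.6 and 25.1 CPM at Day 12. LIS1+/+ libraries stood at 98.1, 74.8 and 104 CPM in hESC, 33.8, 32.0 and 27.3 CPM at Day 5 and 25.8, 36.5 and 29.7 CPM at Day 12. The step to Day 5 was -1.29 ± 0.21 (adjusted p = 1.51e-05) in LIS1+/- and -1.58 ± 0.20 (adjusted p = 6e-07) in LIS1+/+. RefSeq lists 7 pseudogenes of its name and it overlaps AP002884.3 on the same strand, so its counts are uncertain.

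The flavoprotein gene SDHA stood between 67.1 and 72.6 CPM in hESC LIS1+/-, 62.8 and 71.7 CPM at Day 5 LIS1+/- and 64.4 and 74.8 CPM at Day 12 LIS1+/-. Its change at Day 12 against hESC was -0.03 ± 0.19 (adjusted p = 0.911) in LIS1+/- and -0.37 ± 0.20 (adjusted p = 0.115) in LIS1+/+. SDHC, the other anchor, was counted thinly, at 1.26 to 8.02 CPM over the 18 libraries, and has 5 listed pseudogenes. Whether SDHA and SDHB differed in their change was not tested.

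Complex III passes electrons to cytochrome c. UQCRH, its hinge protein, stood at 1128, 866 and 786 CPM in hESC LIS1+/-, 426, 589 and 439 CPM at Day 5 and 309, 304 and 273 CPM at Day 12. Levels in LIS1+/+ were 1310, 943 and 1249 CPM in hESC, 509, 544 and 472 CPM at Day 5 and 306, 375 and 337 CPM at Day 12. Each stage lay below the one before without overlap. At Day 12 against hESC the log2 fold change was -1.65 ± 0.17 (adjusted p = 6.27e-09) in LIS1+/- and -1.78 ± 0.17 (adjusted p = 1.96e-09) in LIS1+/+. UQCRHL, a near-identical copy of UQCRH, was counted at 2.48 to 18.7 CPM, and reads could be split between the pair. Its step to Day 12 passed in LIS1+/+ (2.10 ± 0.45, adjusted p = 0.00116) and not in LIS1+/- (0.33 ± 0.43, adjusted p = 0.654). Of the 9 tested complex III genes, 5 were lower at Day 12 against hESC in LIS1+/- (25.4% of all genes, median -0.52) and 6 in LIS1+/+ (25% of all genes, median -0.68), and none was higher.

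Complex IV, cytochrome c oxidase, reduces oxygen. Of its 12 tested genes, 8 were lower at Day 12 against hESC in LIS1+/- (25.4% of all genes, median -0.47) and 9 in LIS1+/+ (25% of all genes, median -0.63), and none was higher. COX7A2, the widely expressed form of subunit 7A, changed late: it stood at 34.6, 27.0 and 30.5 CPM at Day 12 LIS1+/-, against 88.6, 78.2 and 67.6 CPM at Day 5 LIS1+/-. It stood at 38.8, 27.1 and 30.2 CPM at Day 12 LIS1+/+, against 70.7, 82.5 and 61.8 CPM at Day 5 LIS1+/+. The step was -1.36 ± 0.24 (adjusted p = 0.000261) in LIS1+/- and -1.17 ± 0.25 (adjusted p = 0.00116) in LIS1+/+.

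COX5A, a matrix-facing subunit, changed early in LIS1+/+ (-0.85 ± 0.17 at Day 5 against hESC, adjusted p = 0.000216) and not past the threshold in LIS1+/- (-0.20 ± 0.17, adjusted p = 0.352). COX7B and COX6C, small subunits of the membrane part, peaked at Day 5 in LIS1+/-. COX6C stood at 56.2, 37.9 and 42.9 CPM in hESC LIS1+/-, 82.6, 106 and 63.5 CPM at Day 5 and 45.8, 35.6 and 31.6 CPM at Day 12, so that Day 5 overlapped with neither. Its log2 fold change was 0.89 ± 0.24 (adjusted p = 0.00361) at the first step and -1.18 ± 0.24 (adjusted p = 0.000987) at the next. In LIS1+/+ the same steps were -0.16 ± 0.24 and -0.14 ± 0.24 (adjusted p = 0.61 and 0.703). RefSeq lists 18 pseudogenes of COX6C, so its counts are uncertain. COX7B rose by 0.77 ± 0.28 (adjusted p = 0.0291) in LIS1+/- at Day 5, a call that was lost without hESC replicate 1 or 2 or Day 5 replicate 1 or 3, and its later step was -1.37 ± 0.29 (adjusted p = 0.00171). In LIS1+/+ the log2 fold changes of COX7B were 0.66 ± 0.28 and -0.66 ± 0.29 (adjusted p = 0.0627 and 0.0917).

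Complex V makes ATP. Of its 17 tested genes, ATP5S and ATP5SL among them, 7 were lower and 1 higher at Day 12 against hESC in LIS1+/- (median -0.45), and 12 were lower and none higher in LIS1+/+ (median -0.67). Of all genes, 25.4% were lower in LIS1+/- and 25% in LIS1+/+, and 52.1% and 53.1% passed in either direction. ATP5F1, subunit b of the peripheral stalk, had a log2 fold change of -1.25 ± 0.18 (adjusted p = 1.33e-06) in LIS1+/- and -1.76 ± 0.18 (adjusted p = 7.39e-09) in LIS1+/+. RefSeq lists 8 pseudogenes of ATP5F1, so its counts are uncertain. The genes ATP5G1, ATP5G2 and ATP5G3 encode the same mature c subunit of the rotating ring, and ATP5G1 and ATP5G2 took different courses.

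ATP5G1 stood at 265, 212 and 238 CPM in hESC LIS1+/-, 104, 88.5 and 92.5 CPM at Day 5 and 76.1, 74.0 and 76.4 CPM at Day 12. In LIS1+/+ it stood at 280, 252 and 268 CPM in hESC, 108, 119 and 91.1 CPM at Day 5 and 63.3, 54.7 and 92.5 CPM at Day 12. All organoid libraries lay below all hESC libraries. At Day 5 against hESC the log2 fold change was -1.33 ± 0.17 (adjusted p = 5.2e-07) in LIS1+/- and -1.33 ± 0.17 (adjusted p = 4.58e-07) in LIS1+/+.

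ATP5G2 did not share this course. It stood at 507, 551 and 483 CPM in hESC LIS1+/-, 668, 454 and 681 CPM at Day 5 and 617, 458 and 453 CPM at Day 12. The LIS1+/+ values were 477, 468 and 350 CPM in hESC, 719, 781 and 746 CPM at Day 5 and 452, 433 and 591 CPM at Day 12. The Day 5 LIS1+/+ libraries stood above all others of LIS1+/+, while the LIS1+/- stages overlapped. The step to Day 5 was 0.23 ± 0.17 (adjusted p = 0.296) in LIS1+/- and 0.79 ± 0.17 (adjusted p = 0.000526) in LIS1+/+, and the step after it -0.24 ± 0.17 (adjusted p = 0.364) in LIS1+/- and -0.60 ± 0.17 (adjusted p = 0.0112) in LIS1+/+. The LIS1+/+ call at the later step was lost without Day 12 LIS1+/+ replicate 2 (adjusted p = 0.0509).

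Of the counts of these c subunit genes, ATP5G1 made up 10.8% to 16% in the 12 organoid libraries, against 33.8%, 27.4% and 32.5% in hESC LIS1+/- and 36.1%, 34.2% and 41.7% in hESC LIS1+/+. The exact binomial 95% intervals were 14.2% to 18% for the highest organoid library and 25.3% to 29.5% for the lowest hESC library, and cover counting error only. The shares of organoid and hESC libraries did not overlap. ATP5G3 was counted at 4.39 to 24.8 CPM. In LIS1+/+ it passed as lower at Day 5 (6.99 to 8.44 CPM) against hESC (15.4 to 24.8 CPM), as ATP5G1 did. It did not pass at that step in LIS1+/-. RefSeq lists 8 pseudogenes of ATP5G1 and 5 of ATP5G2.

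ATP5E, the epsilon subunit, rose in LIS1+/- at Day 12, with 3.16, 3.61 and 2.52 CPM in hESC LIS1+/-, 3.74, 4.75 and 4.10 CPM at Day 5 and 16.1, 7.68 and 9.97 CPM at Day 12. The change against hESC was 1.81 ± 0.44 (adjusted p = 0.0012) in LIS1+/- and 1.06 ± 0.48 (adjusted p = 0.0643) in LIS1+/+. It overlaps TUBB1 on the opposite strand, so the counts of this low gene are uncertain.

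The assembly factors build complex I without staying in it, and they moved in both directions. NDUFAF7, a mitochondrial methyltransferase needed for assembly, stood at 68.2, 76.6 and 66.4 CPM in hESC LIS1+/-, 25.8, 21.9 and 18.4 CPM at Day 5 and 19.8, 17.6 and 16.5 CPM at Day 12. Its LIS1+/+ libraries had 75.7, 70.1 and 64.6 CPM in hESC, 18.8, 19.4 and 19.8 CPM at Day 5 and 26.5, 19.5 and 17.0 CPM at Day 12. As with SDHB, every organoid library lay below every hESC library, and the change at Day 5 against hESC was -1.68 ± 0.21 (adjusted p = 2.25e-07) in LIS1+/- and -1.86 ± 0.20 (adjusted p = 3.89e-08) in LIS1+/+.

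NDUFAF3, which acts early in assembly, ran the other way. It stood at 101, 95.1 and 103 CPM in hESC LIS1+/-, 209, 215 and 217 CPM at Day 5 and 347, 296 and 300 CPM at Day 12. LIS1+/+ libraries stood at 112, 98.2 and 132 CPM in hESC, 234, 191 and 208 CPM at Day 5 and 335, 310 and 200 CPM at Day 12. The LIS1+/- stages did not overlap, and in LIS1+/+ Day 12 replicates 1 and 2 stood above the Day 5 libraries and replicate 3 within their range. At Day 12 against hESC it rose 3.15-fold in LIS1+/- (1.65 ± 0.17, adjusted p = 1.12e-08) and 2.46-fold in LIS1+/+ (1.30 ± 0.17, adjusted p = 6.53e-07). No other member passed as higher at Day 12 against hESC in LIS1+/+. NDUFAF2 fell in both genotypes (-1.25 ± 0.24, adjusted p = 8.73e-05, in LIS1+/- and -1.49 ± 0.25, adjusted p = 1.58e-05, in LIS1+/+).

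**Figure D3:**
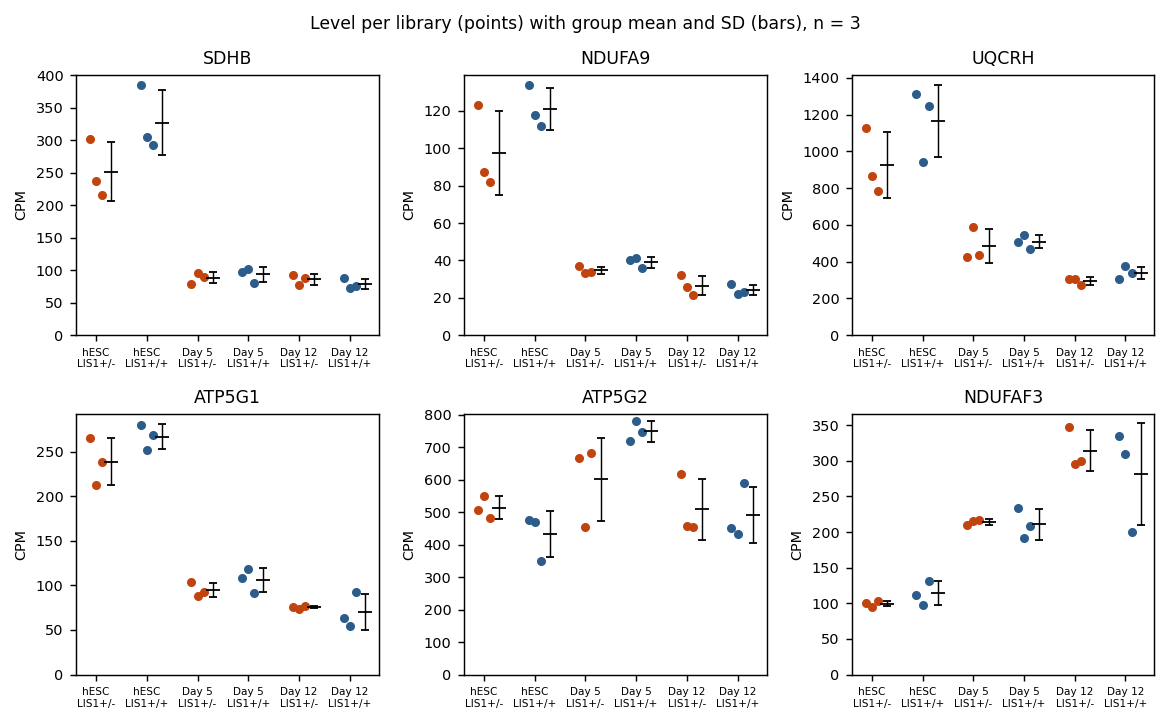
CPM (vertical axis) of SDHB, NDUFA9, UQCRH, ATP5G1, ATP5G2 and NDUFAF3 in each library (points) by group, with the group mean and SD. SDHB, NDUFA9, UQCRH and ATP5G1 are highest in hESC, ATP5G2 stands highest in the Day 5 LIS1+/+ libraries (719 to 781 CPM), and NDUFAF3 is lowest in hESC.

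**Figure D4:**
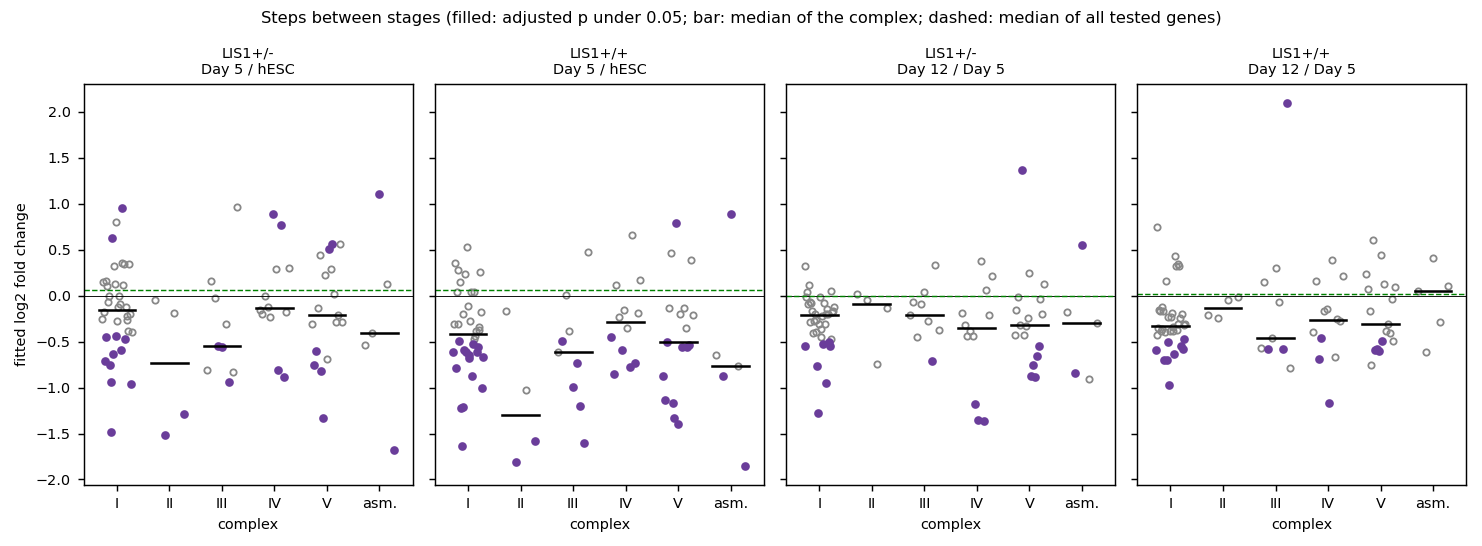
Fitted log2 fold changes of the tested members (points) by complex for the steps to Day 5 and to Day 12 in each genotype, where asm. stands for assembly factors, filled points passed, bars are the medians of a complex and the dashed line is the median of all tested genes. Complex II has the lowest median at the step to Day 5, and none of its genes passed at the later step.

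Forms of complex IV subunits known from particular tissues had few or no counts. COX4I2 (lung), COX6A2 (muscle and heart) and COX7B2 (testis) had no count in any library. For COX4I2 that allows a share of up to 0.0634% to 0.269% of the COX4I1 and COX4I2 counts, depending on the library, by counting error only. The same limit is 0.225% to 0.896% for COX6A2 beside COX6A1 and 0.962% to 5.77% for COX7B2 beside COX7B. COX7A1 had 1 count in all, COX8C 4, COX6B2 8 and NDUFA4L2 15. Both NDUFA4L2 and NDUFA4 were counted thinly, and NDUFA4L2 made up as much as 28.6% of their counts in a library (2 of 7 counts in Day 12 LIS1+/+ replicate 1). The other members not tested were NDUFAF4 (114 counts), UQCRB (56), NDUFAF5 (36), ATP5L2 (33) and NDUFA5 (18). NDUFA5, UQCRB, NDUFA4 (0.618 to 7.40 CPM) and UQCRQ (0.487 to 4.39 CPM) encode subunits found in the enzyme of every tissue. RefSeq lists 12 pseudogenes of NDUFA5, 5 of NDUFA4, 3 of UQCRB and 0 of UQCRQ. Alignments that were not unique were set aside before counting, and levels of different genes are not comparable in 3' tag counts, so expression of these genes, or of the tissue-restricted forms, cannot be read from their low counts.

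Lists of other mitochondrial genes, written from textbook knowledge, were described in the same way. Beside the counts of each list at Day 12 against hESC, 25.4% of all genes were lower and 26.7% higher in LIS1+/-. In LIS1+/+ 25% were lower and 28.1% higher. Of 72 tested mitochondrial ribosome genes, 54 were lower and 2 higher at Day 12 against hESC in LIS1+/- (median -0.79), and 52 were lower and 1 higher in LIS1+/+ (median -0.86). MRPL32, a large subunit protein, had a log2 fold change of -1.90 ± 0.17 in LIS1+/- and -2.20 ± 0.18 in LIS1+/+. Of 16 regulators of mitochondrial biogenesis, 9 were lower and 1 higher in LIS1+/- (median -0.95) and 11 lower and none higher in LIS1+/+ (median -1.19). They include ESRRA, a nuclear receptor of respiratory genes (log2 fold change -1.88 ± 0.23 in LIS1+/- and -2.11 ± 0.24 in LIS1+/+), and the coactivator PPRC1 (-1.86 ± 0.21 in LIS1+/- and -1.73 ± 0.22 in LIS1+/+).

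Of 40 assembly factors and chaperones beyond the member rule, 14 were lower and 5 higher in LIS1+/- (median -0.21), and 16 were lower and 2 higher in LIS1+/+ (median -0.29). Over all genes 52.1% passed in either direction in LIS1+/- and 53.1% in LIS1+/+. COX17, a copper chaperone of complex IV, had a log2 fold change of -0.64 ± 0.21 in LIS1+/- and -1.57 ± 0.22 in LIS1+/+. Of 17 tricarboxylic acid cycle genes, 9 were lower and 1 higher in LIS1+/- (median -0.48) and 11 lower and 1 higher in LIS1+/+ (median -0.70). The 1 that rose was IDH2, the NADP-dependent isocitrate dehydrogenase of mitochondria (log2 fold change 2.01 ± 0.14 in LIS1+/- and 2.15 ± 0.15 in LIS1+/+). Of 24 electron carriers and shuttles, 11 were lower in each genotype, 1 higher in LIS1+/- and 2 higher in LIS1+/+. SLC25A5, an ATP/ADP carrier, fell (-1.47 ± 0.16 in LIS1+/- and -1.25 ± 0.16 in LIS1+/+), and the uncoupling protein gene UCP2 rose (3.09 ± 0.33 in LIS1+/- and 2.70 ± 0.34 in LIS1+/+).

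Genes of hypoxia and glycolysis took another course. Of 30 tested, 18 rose and 1 fell at Day 12 against Day 5 in LIS1+/- (median 1.03), and 20 rose and none fell in LIS1+/+ (median 1.24), beside the 17 and 18 members that fell. Of all genes, 8.9% rose and 7.64% fell at that step in LIS1+/-, and 12.7% rose and 11.7% fell in LIS1+/+. BNIP3, a hypoxia-induced mitophagy receptor, stood at 556, 467 and 294 CPM at Day 12 LIS1+/-, against 57.6, 70.2 and 69.6 CPM at Day 5 LIS1+/-, a log2 fold change of 2.73 ± 0.21 (adjusted p = 5.17e-10). Levels in LIS1+/+ were 830, 700 and 611 CPM at Day 12, against 97.9, 82.5 and 127 CPM at Day 5 (2.80 ± 0.20, adjusted p = 3.23e-10). At Day 5 against hESC the list was mixed, with 5 higher and 15 lower in LIS1+/- (22.4% and 21.4% of all genes) and 7 higher and 13 lower in LIS1+/+ (22.9% and 21.7%). Over the whole span the summed level of the list overlapped between hESC and Day 12. It ran between 11237 and 12366 CPM in hESC LIS1+/- and 9799 and 13056 CPM at Day 12 LIS1+/-. In LIS1+/+ it ran between 10132 and 11370 CPM in hESC and 10610 and 16038 CPM at Day 12. A relation between these lists and the members was not tested.

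The second question was whether the members differed between LIS1+/- and LIS1+/+. No member passed at any stage with edgeR. In hESC none of 83 passed, where 0.491% of all genes did, and 21 had an unadjusted p under 0.05. At Day 5 none passed (1.95% of all genes, 8 members with an unadjusted p under 0.05), and at Day 12 none passed (1.4%, 2 members). In the mean of the effect over the stages none passed (2.06%, 10 members). The share of all genes with an unadjusted p under 0.05 was not counted, so these member counts have no background to be set against. DESeq2 called ATP5H in hESC and NDUFS4 in the mean effect, and no member at Day 5 or Day 12.

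As a group the members leaned lower in LIS1+/- stem cells, a lean described here by counts and medians with no test. In hESC 69 of 83 fitted fold changes were below 0, with a median of -0.21 beside 0.03 over all genes. At Day 5 39 were below 0 (median 0.01, beside 0.01), and at Day 12 42 were (median -0.00, beside -0.01). In hESC the LIS1+/- libraries lay wholly below the LIS1+/+ libraries for 8 members and wholly above for 1, where 7.69% and 10.6% of all genes did. At Day 5 they lay below for 6 and above for 7 (9.45% and 8.06% of all genes), and at Day 12 below for 5 and above for 1 (8.43% and 8.47%). By complex the hESC medians were -0.26 for complex I, -0.39 for II, -0.04 for III, -0.18 for IV, -0.19 for V and -0.19 for assembly factors. The lean was not even over libraries: by summed level hESC LIS1+/- replicate 1 (24884 CPM) stood within the LIS1+/+ range of 23399 to 26444 CPM, and replicates 2 and 3 (20881 and 19576 CPM) stood below it. Alignments not unique made up 52.5% in replicate 1, within the 46.2% to 58.3% of LIS1+/+, and 40.9% and 34.9% in replicates 2 and 3. Summed markers differed too in hESC, with 4734 to 4911 CPM of pluripotency markers in LIS1+/- against 5889 to 6390 CPM in LIS1+/+, and 8474 to 8640 CPM of neural progenitor markers in LIS1+/- against 6466 to 6659 CPM in LIS1+/+. Muscle and heart markers stood at 473 to 554 CPM in LIS1+/- against 151 to 192 CPM in LIS1+/+, neuron markers at 969 to 1027 CPM in LIS1+/- against 805 to 837 CPM in LIS1+/+, and mesenchyme markers at 525 to 609 CPM in LIS1+/- against 463 to 500 CPM in LIS1+/+. SOX2 stands in both the pluripotency and the neural progenitor list. The neuron sums in hESC also stood above those at Day 5 (739 to 787 CPM in LIS1+/- and 611 to 719 CPM in LIS1+/+). These sums therefore cannot be read as shares of cell types. The part of the marker sums and of the alignments not unique in the lean was not tested.

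**Figure D5:**
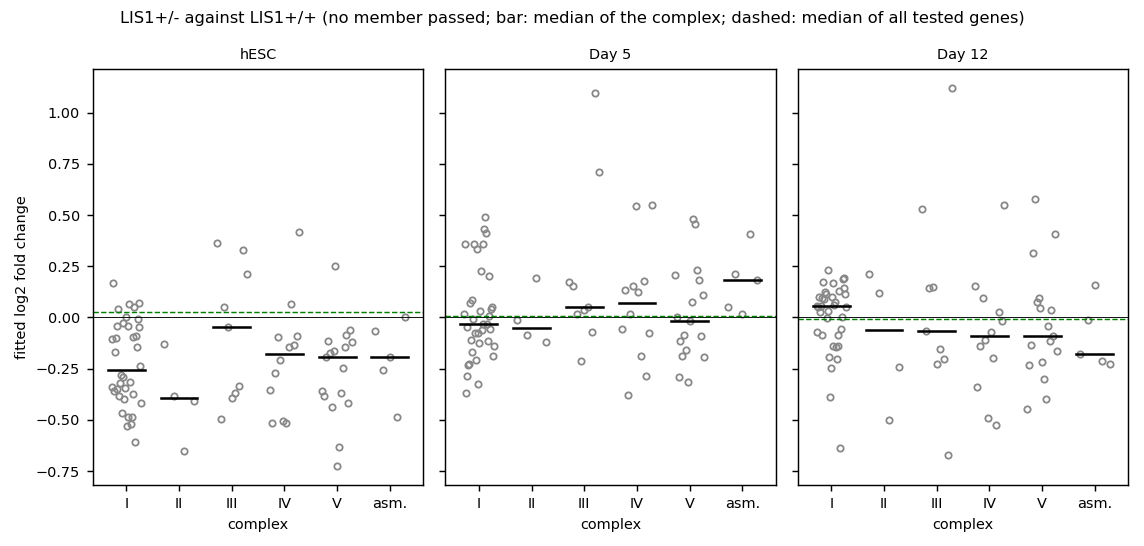
Fitted log2 fold changes of LIS1+/- against LIS1+/+ for the tested members (points) by complex at each stage, where asm. stands for assembly factors, bars are medians of a complex and the dashed line is the median of all tested genes. Medians of a complex lie between -0.39 and -0.04 in hESC, -0.05 and 0.18 at Day 5 and -0.18 and 0.05 at Day 12, and no point passed.

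The members nearest to the threshold were as follows. ATP5H, subunit d of the complex V stalk, stood at 170, 143 and 126 CPM in hESC LIS1+/- and 248, 176 and 255 CPM in hESC LIS1+/+, without overlap (-0.63 ± 0.17, adjusted p = 0.0823). It passed without hESC LIS1+/+ replicate 2 (adjusted p = 0.0446). COX5A stood at 506, 420 and 497 CPM in hESC LIS1+/- and 648, 553 and 835 CPM in hESC LIS1+/+ (-0.52 ± 0.17, adjusted p = 0.214), and ATP5O, which joins the stalk to the catalytic head, at 385, 366 and 334 CPM in LIS1+/- and 517, 429 and 504 CPM in LIS1+/+ (-0.42 ± 0.14, adjusted p = 0.217). ATP5O overlaps AP000311.1 on the same strand, so its counts are uncertain. At Day 5 the smallest p-values were those of UQCRHL (1.10 ± 0.45, adjusted p = 0.313), COX6C (0.54 ± 0.23, adjusted p = 0.327) and COX5B (-0.38 ± 0.16, adjusted p = 0.343).

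At Day 12 they were those of NDUFS4 (-0.64 ± 0.23, adjusted p = 0.208), the alpha subunit gene ATP5A1 (-0.45 ± 0.18, adjusted p = 0.269) and COX5A (-0.34 ± 0.17, adjusted p = 0.409). NDUFS4, an accessory subunit of the NADH-oxidising module whose loss causes Leigh syndrome, stood at 61.2, 41.5 and 41.9 CPM in Day 12 LIS1+/- and 56.9, 85.6 and 78.8 CPM in Day 12 LIS1+/+, and the groups overlapped. Its mean effect was a log2 fold change of -0.45 ± 0.13 (adjusted p = 0.0707), below the threshold with 1 of 5 libraries left out: hESC LIS1+/+ replicate 2, hESC LIS1+/- replicate 1, Day 5 LIS1+/- replicate 2, Day 12 LIS1+/+ replicate 1 or Day 12 LIS1+/- replicate 1 (adjusted p between 0.0209 and 0.0455). At Day 12 the summed mesenchyme markers also differed, with 101 to 140 CPM in LIS1+/- against 1036, 162 and 441 CPM in LIS1+/+. The LIS1+/+ libraries thus varied widely, with replicate 2 nearest to LIS1+/-. The part of these markers was not tested.

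Whether the effect of genotype differed between stages was tested directly, and no member passed. For Day 5 minus hESC 0.573% of all genes passed and 15 members had an unadjusted p under 0.05, for Day 12 minus Day 5 1.06% passed and 5 members did, and for Day 12 minus hESC 0.377% passed and 3 members did. The share of all genes at that unadjusted threshold was again not counted. DESeq2 called none in these tests. The members' median differences were 0.27, 0.00 and 0.19, beside -0.03, -0.01 and -0.03 over all genes. COX6C had the smallest p in the first 2 (1.05 ± 0.33, adjusted p = 0.18, and -1.04 ± 0.34, adjusted p = 0.179), followed by ATP5H (0.71 ± 0.23, adjusted p = 0.196) and ATP5I, subunit e of complex V (-0.88 ± 0.30, adjusted p = 0.199). ATP5I passed the second without Day 12 LIS1+/+ replicate 3 (adjusted p = 0.0479). The larger number of members that fell at Day 5 in LIS1+/+ (39, against 22 in LIS1+/-) was not matched by a member whose step differed between the genotypes past the threshold.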

How the data were processed

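Each library has a table of deposited counts, whole numbers listed by gene symbol and not normalized. Tools named in the authors' pipeline, per the submitters' processing notes, are cutadapt, STAR and DESeq2. Both GRCh37 and hg38 appear there, and which one the counts rest on is unclear. Collapse of molecular identifiers is not stated. The 5 closing rows that name no gene hold 49.2% to 70.6% of each file's total and were left out. Genes were filtered with filterByExpr, scaled with TMM and tested in 1 fit of 18 libraries (edgeR 4.0.16, robust quasi-likelihood F-test, R 4.3.3, two-sided, 12 residual degrees of freedom), with Benjamini-Hochberg adjustment over 12215 genes and a threshold of 0.05. There were 13 comparisons: the genotype effect at each stage and its mean, the 6 stage comparisons and the differences of the genotype effect. Comparisons share libraries. Errors are SE of the fit. CPM values come from the counts and TMM. Replicate numbers were not used to pair the samples in the main fit, as the labels give a repeat number and state no pairing. Correlations of same-numbered deviations ran from -0.227 to 0.331, which cannot decide whether samples were paired. No 2 libraries held identical counts. Named members were the largest changes past the threshold without overlapping libraries and with at least 10 CPM, up to 8 per direction and comparison, the smallest p per complex, the isoform families and members not tested. The text does not print each of them, and 1 member is counted but not reported here by name. Members, complexes and the 12 other lists (6 of them markers, printed where they touch a result) were chosen with earlier results of these data known. Of the markers, endoderm, muscle and neuron lists are given in the closing section. Alternatives were DESeq2 size factors, no filter, DESeq2 1.42.0, a fit of the compared libraries, a replicate block, and leaving out single libraries or the 3 that stood apart. The fit was also run on simulated counts drawn with its own estimates of spread. Such a run cannot speak to effects of pool, clone or GC content. Promoters were searched on both strands for exact matches to each motif, with the NRF1 and YY1 motifs given by name. GC content came from the last 500 bases of GENCODE 29 transcripts, and figures from Matplotlib 3.10.9.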

Additional observations from a re-analysis of the deposited data

How the results depend on the processing

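No result reversed. The counts of members called moved under these settings: with no filter on low counts, 2 in the mean genotype effect (CYC1 and NDUFS4) and 1 in the difference Day 12 minus Day 5 (ATP5I); with DESeq2, 1 in the hESC genotype comparison (ATP5H) and 1 in the mean effect (NDUFS4), each against 0. With single libraries left out, counts ran from 0 to 1 in the hESC genotype comparison, 0 to 1 in the mean effect, 0 to 1 in the difference Day 12 minus Day 5, 8 to 20 for Day 12 against Day 5 in LIS1+/+ and 12 to 17 in LIS1+/-. The other stage counts stayed within 1.5 times: 22 to 29 (LIS1+/-) and 32 to 43 (LIS1+/+) for Day 5 against hESC, and 35 to 46 and 48 to 50 for Day 12 against hESC. Without the 3 libraries with the GC slope, members called at Day 12 against hESC numbered 51 in LIS1+/- and 50 in LIS1+/+. With the replicate block the counts were 45 in LIS1+/- and 55 in LIS1+/+ for Day 12 against hESC, and it moved no count by over 1.5 times. Over single members and alternatives 1744 values kept direction and side of the threshold, 106 lost the call and 13 gained it. Members with few counts are limited by depth. Pseudogenes and overlapping genes are named above for some members only, and other members have them too.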

Other observations

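Markers of other lineages moved between stages alongside the members. The summed level of 15 neuron markers ran between 969 and 1027 CPM in hESC LIS1+/-, 739 and 787 CPM at Day 5 LIS1+/- and 1362 and 1506 CPM at Day 12 LIS1+/-. In LIS1+/+ it ran between 805 and 837 CPM in hESC, 611 and 719 CPM at Day 5 and 1446 and 2013 CPM at Day 12. Muscle and heart markers, given above for hESC, summed to 5.27 to 20.2 CPM in the organoids. Endoderm, liver and yolk sac markers summed to 9.97 to 23.5 CPM in Day 12 LIS1+/-, against 24.5 to 526 CPM in Day 12 LIS1+/+. Their part in the members' values was not tested.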
